A study of Mus musculus with 8 samples.

Results

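Primary cultures of cerebellar cells from wild-type newborn mice that had received T3, the active thyroid hormone, for 16 h were compared with matched untreated cultures. Each condition was read on 1 whole-genome mouse array, so this pair comprises 2 of the 8 arrays of a series that also covers 6, 24 and 48 h. Of 45037 probe-sets other than hybridization controls, the 15832 with a signal of 50 or more on at least 1 of the 2 arrays were kept, and they represent 9284 of 18193 genes. A gene with several kept probe-sets is given by its brightest. T3 was added at 0.1 µM after 48 h of culture in serum-free Neurobasal medium with B27, a supplement whose standard formula itself contains T3, and the untreated cultures had the same changes of medium. The cerebella of several pups (P4 to P7 in the labels, P1 to P4 in the methods) were pooled, and both cultures of a time point came from 1 preparation. All fold changes at 16 h therefore compare 1 culture with 1 culture. They have no error of their own and were not tested.

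T3 acts through nuclear receptors encoded by Thra and Thrb, which sit on DNA as partners of the RXR receptors. Without hormone they hold corepressors such as the NCoR complex with the deacetylase HDAC3, and with hormone they bind coactivators and raise transcription of their targets. In the newborn cerebellum T3 is known for its part in the end of granule cell proliferation, the growth of Purkinje cell dendrites and the maturation of glia.

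The signals of both cultures were close to each other for most probe-sets, 71.1% lying within 1.2-fold and 94.8% within 1.5-fold. Signals were higher with T3 for 7752 probe-sets and lower for 8052, the median log2 difference (T3 minus untreated) was -0.01 and its SD over probe-sets was 0.29. At least 2-fold higher with T3 were 64 probe-sets (0.404%) and at least 2-fold lower 67 (0.423%), together 0.827%. Counted as genes, 36 were at least 2-fold higher (0.388%) and 28 at least 2-fold lower (0.302%), together 0.689%. The same count of probe-sets gave 0.606% at 6 h and 0.833% at 48 h but 11.2% at 24 h. Log2 signals of the arrays of a pair correlated at 0.939 at 24 h and at 0.986, 0.982 and 0.984 at 6, 16 and 48 h (Pearson's r over the kept probe-sets, as a description), and which of the 24 h arrays departs was not tested. Most of the large differences lay at low signal. Among probe-sets whose brighter array read from 50 to 100 the share past 2-fold was 1.52%, and among those at 1000 or more 0.128%, which is 2 of 1568. Of the 36 higher genes 20 had a signal under 50 on 1 of the arrays, and of the 28 lower genes 15 did. Different probe-sets of the same gene differed in their 16 h value with an SD of 0.25, over 3441 genes with more than 1 kept probe-set. The brighter signal just inside the filter was 50 and just outside it 49.9, and the T3 over untreated ratios nearest to the 2-fold limits were 2.0 (Deaf1) and 0.5 (Ildr2) inside and 1.99 (Igfbp4) and 0.501 (Arhgef40) outside.

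**Figure D1:**
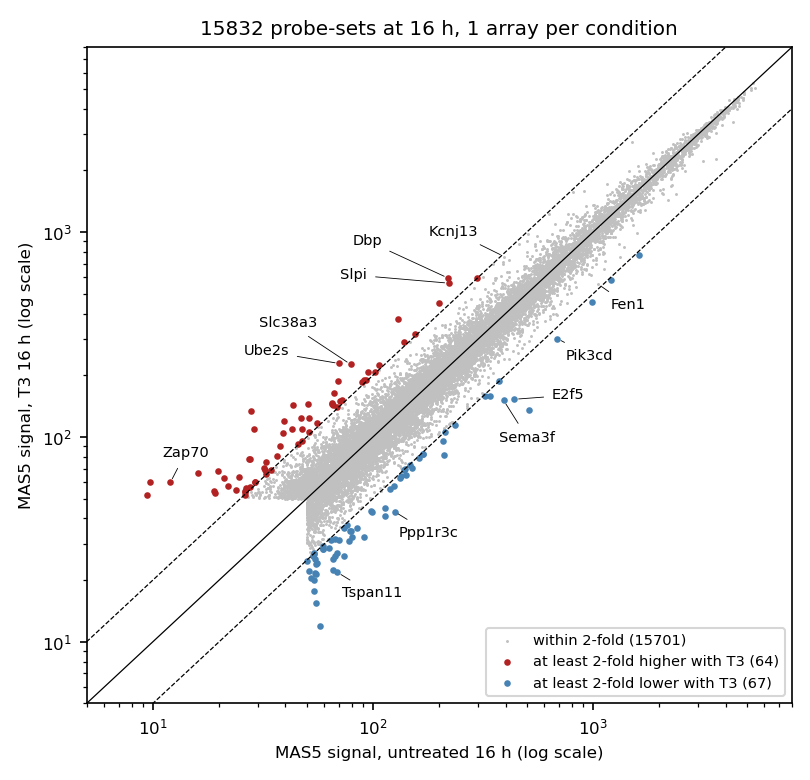
MAS5 signal of the T3 culture (y axis) against that of the untreated culture (x axis) at 16 h, both on log scales, for the 15832 kept probe-sets. The solid line marks equal signals and the dashed lines 2-fold differences: 64 probe-sets (red) lie above and 67 (blue) below these lines, most of them at signals under 200.

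The median signal of the 8 arrays lay between 14.8 and 17.7, and 15258 probe-sets reached a signal of 50 on the T3 array at 16 h against 15237 on the untreated one. The cultures held more than neurons. On both 16 h arrays markers of granule cell precursors were bright (Zic1, 2418 with T3 and 2380 without), as were those of astrocytes (Gja1, 2934 and 3301), fibroblasts of the meninges (Col3a1, 2395 and 2754) and choroid plexus (Ttr, 3982 and 4478), while the 4 genes of red blood cells with a probe-set were all under the filter. Of 8 listed red blood cell genes only these 4 had a probe-set with a single symbol, and the others were not assessed. Zic1, Gja1, Col3a1 and Ttr are single bright members of their lists. Under the filter were 2 of 20 precursor genes with a probe-set and 6 of 19 astrocyte genes. So were 3 of 18 endothelial, mural and meningeal genes and 1 of 14 choroid plexus genes. Gabra6, the GABA receptor subunit that defines mature granule neurons, was near background (8.8 with T3 and 2.7 without). RNA was taken from whole cultures, so fewer cells of a type and less RNA per cell cannot be told apart. Xist, which is made from the silent X chromosome of females, had signals of 651 and 538.5, a log2 difference of 0.27. The Y-linked genes Eif2s3y, Uty and Kdm5d differed by 0.06, 0.19 and -0.11. At 6 h Xist read 11.6 with T3 and 15.2 without, against 836 and 1037 at 24 h and 1035 and 827 at 48 h. Col3a1 read 265 and 486 at 6 h, against at least 1798.9 on the other arrays. The cell preparations thus differed between time points, and their part in comparisons of signals across time points was not tested.

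The genes that the study followed up from these arrays open the description, and since most were chosen on these data, others such as Hr from prior knowledge, they are no independent evidence. Of 15, 14 had a probe-set and 13 passed the filter. Their median log2 difference at 16 h was 0.48, against -0.01 over all genes. At 16 h, 1 was past 2-fold and 7 were past 1.6-fold, 4 higher and 3 lower, where 1.5% and 1.3% of all genes were past 1.6-fold higher and lower, together 2.8%. Dbp encodes a PAR bZIP transcription factor that is an output of the circadian clock. Its signal was 596 with T3 and 219 without, a log2 difference of 1.45, and the other kept probe-set of the gene gave 143 and 43.5, or 1.72. The untreated signals of Dbp at 6, 24 and 48 h were 92.7, 179.5 and 441.5 and the T3 signals 268, 469 and 867, so the T3 culture was the higher member of every pair.

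Klf9, a Krüppel-like factor known as a direct T3 target in the brain, had a signal of 2737 with T3 and 1508 without (log2 difference 0.86). Its other kept probe-sets gave 0.96, 0.80 and 2.26, the last from signals of 133 and 27.9. At the other time points the T3 culture had 3100 against 1220.0 at 6 h, 3131 against 1235 at 24 h and 2268 against 1498 at 48 h, and the groups of 4 arrays did not overlap. On this probe-set the difference at 16 h was smaller than at 6 and 24 h (1.35 and 1.34) and larger than at 48 h (0.60). The probe-set with 2.26 at 16 h had 1.83, 2.29 and 1.13 at 6, 24 and 48 h. Hr, the corepressor Hairless and a classical T3 target, was below the filter with 17.6 against 10.7. A second probe-set of Hr, also below the filter, read 21.6 against 1.3 at 16 h and was higher with T3 at all 4 time points.

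Gbp3, an interferon-inducible GTPase, had 728 with T3 and 415 without (0.81), and Spata13, an exchange factor for Rac and Cdc42, 234 and 139.5 (0.75). Snap25, a SNARE protein of the synaptic vesicle fusion machinery, had 228 and 146 (0.65), the DNA-binding repressor Zbtb20 237.5 and 164 (0.54), and Pfkfb3, which makes an activator of glycolysis, 89.7 and 64.2 (0.48). These 5 were also higher with T3 at 6, 24 and 48 h. In the other direction stood the annexin Anxa8 (57.8 and 112, -0.95), the pantetheinase Vnn1 (284 and 483, -0.77), the epithelial cadherin Cdh1 (280 and 449, -0.68), the transglutaminase Tgm2 (989 and 1580, -0.68), the semaphorin receptor Plxna2 (111 and 165, -0.57) and Igsf3 (126 and 166, -0.40). Of these 6 only Plxna2 was lower with T3 at all 4 time points.

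**Figure D2:**
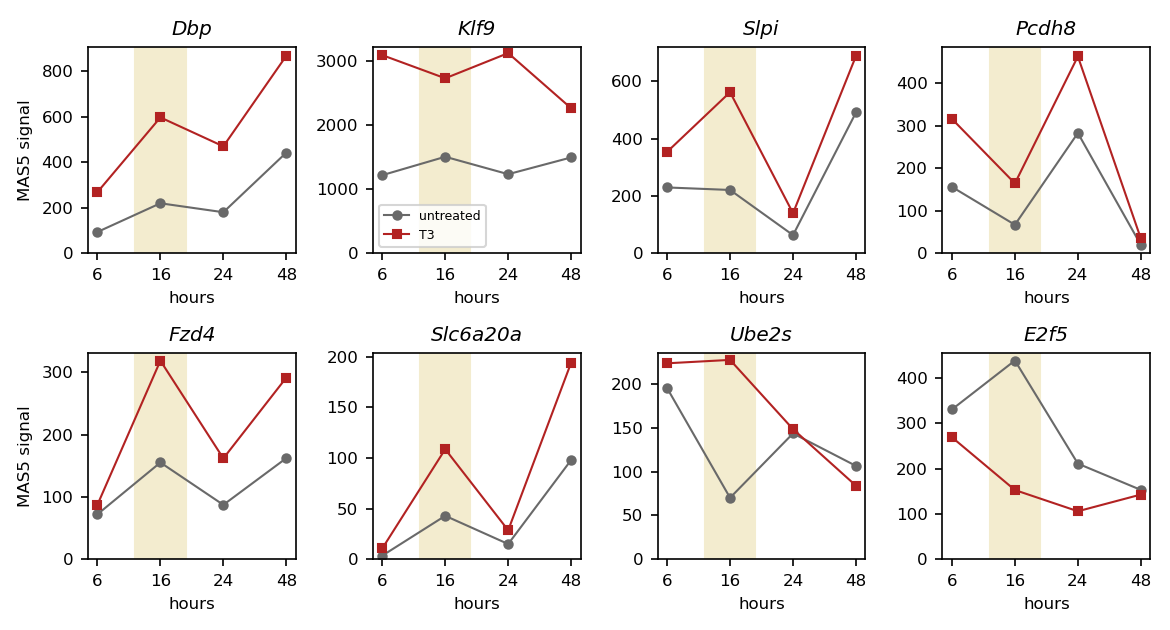
MAS5 signal (y axis, from 0) of 8 genes on all 8 arrays against the hours of treatment (x axis, evenly spaced), 1 array per point, untreated in grey and T3 in red, with 16 h shaded. Dbp, Klf9, Slpi, Pcdh8, Fzd4 and Slc6a20a were higher with T3 at every time point, whereas for Ube2s and E2f5 the untreated culture at 16 h was the lowest and the highest of the 8 arrays.

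Genes were ranked by the difference after 32 had been added to every signal, which plays down the dimmest ones. Ube2s, the ubiquitin-conjugating enzyme that extends chains on targets of the anaphase-promoting complex, headed the higher genes with a signal of 228 with T3 against 70.2 without (log2 difference without the addition 1.70). Its untreated signals at 6, 24 and 48 h were 196, 144 and 107, and the T3 signals 224, 149 and 84.0. The untreated culture at 16 h was thus the lowest of all 8 arrays, and the T3 culture at 16 h lay close to that at 6 h. A similar course was seen in Raly, an RNA-binding protein of the hnRNP family, with 120 and 39.4 at 16 h (1.61) and 75.1 to 101 on the other 6 arrays. Ykt6, a SNARE of vesicle fusion, had 448 and 200.1 (1.16) at 16 h and 391 to 530 elsewhere. Snrpf, a core protein of the spliceosomal snRNPs, had 982 and 504 (0.96) and 486 to 1050 elsewhere, and Chtf8, a subunit of a clamp loader of the replication fork, 123 and 47.3 (1.38). In 21 of the 36 higher genes the untreated culture at 16 h was the lowest of the 4 untreated cultures, and in 9 of the 36 the T3 culture at 16 h was the highest of all 8 arrays. Choosing genes by their 16 h ratio itself favours such ranks, and the share over all genes was not counted. These counts therefore do not tell which culture departed.

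In several genes, Ube2s and Raly among them, the T3 culture at 16 h was the brightest of the 8 arrays. So it was in the next 4. Slc38a3, a glutamine transporter of system N, had 226 with T3 and 79.1 without at 16 h (1.51), and its other signals ran from 25.5 at 6 h to 164 at 48 h. Trpv4, a cation channel opened by warmth and cell swelling, had 104.5 and 39.1 (1.42), against 5.7 to 53.3 on the other arrays. Ndrg2, a gene of astrocytes, had 1224 and 627 (0.97), against 206 to 979 elsewhere. Ncaph2, a subunit of condensin II, had 598 and 295.5 (1.02), the highest and the lowest of its 8 signals, while its other kept probe-set had 306 and 273 (0.16). Slc6a20a, a transporter of proline, had 109 and 42.8 (1.34), and Prodh, the mitochondrial enzyme that begins proline breakdown, 109 and 47.7 (1.19). Both were higher with T3 at the other time points too. At 6, 24 and 48 h the differences were 1.63, 0.94 and 0.99 for Slc6a20a and 0.50, 0.58 and 0.12 for Prodh. The signals of Slc6a20a were below 50 at 6 h (10.5 and 3.4) and 24 h (28.5 and 14.9), as were those of Prodh at 6 h (25.9 and 18.3).

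Slpi, a secreted inhibitor of serine proteases, had 563 with T3 and 221 without (1.35), with differences of 0.62, 1.15 and 0.49 at 6, 24 and 48 h. Pcdh8, a protocadherin of neurons, had 164 and 66.7 (1.30), and its second probe-set 90.5 and 37.8 (1.26). Fzd4, a receptor for Wnt proteins and Norrin, had 319 and 155 (1.04), its second probe-set 295 and 199 (0.57). Tmem38b, a cation channel of the endoplasmic reticulum, had 106 and 51.0 (1.06), but its other kept probe-sets gave -0.20 and 0.05. Zap70, the kinase of the T cell receptor, showed the widest ratio of any gene by its brightest probe-set, 59.9 against 12, and both signals were low. Its untreated signals at 6, 24 and 48 h were 67.7, 49.5 and 37.0, above those with T3 in each pair. The desaturase Fads2 had 206.5 and 95.0 (1.12, other probe-sets 0.42 and 0.38) and the mevalonate pathway enzyme Mvd 151 and 72.4 (1.06, other probe-set 1.08). Neither is in the list of cholesterol and fatty acid synthesis, of whose 18 kept genes 8 were higher and 10 lower, with none past 1.6-fold and a median of -0.02.

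Of the lower genes, E2f5, a repressive member of the E2F family of cell cycle regulators, had a signal of 153 with T3 and 439 without (log2 difference -1.52). The 2 other kept probe-sets of E2f5 did not share this difference, with 142 against 142 (-0.00) and 185.5 against 190 (-0.03). Sema3f, a secreted semaphorin that repels axons, had 151 and 392 (-1.38), and -1.44 at 6 h, 0.64 at 24 h and -0.13 at 48 h. Pik3cd, the delta catalytic subunit of PI3 kinase, had 301.5 and 687.5 (-1.19) against 262 to 408 on the other 6 arrays. Ppp1r3c, which brings protein phosphatase 1 to glycogen, had 43.1 and 125 (-1.54), was lower with T3 also at 6 and 24 h (-0.41 and -1.35) and was higher at 48 h (0.26).

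Fen1, the flap endonuclease of DNA replication, had 556 and 1053 (-0.92), the untreated culture at 16 h being the brightest of all arrays, while its dimmer probe-set had 71.1 and 42.4 (0.75). Rnase4, a secreted ribonuclease, had 187 and 374 (-1.0), the histone variant Macroh2a2 159 and 321 (-1.02), and the transcription factor Nfic 138 and 266 (-0.95, other kept probe-set 0.02). Tspan11 (21.8 and 68.9), Mtmr11 (22.5 and 66.1) and BC052040 (44.8 and 113) had T3 signals below 50. Among the dim lower genes were Twist2 and Gata6, transcription factors of mesenchyme (-1.24 and -1.18, with T3 signals of 35.7 and 34.9). In 12 of the 28 lower genes the untreated culture at 16 h was the highest of the 4 untreated cultures, and in 4 of the 28 the T3 culture was the lowest of the 8 arrays. Here too the choice by the 16 h ratio favours such ranks, and the share over all genes was not counted.

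**Figure D3:**
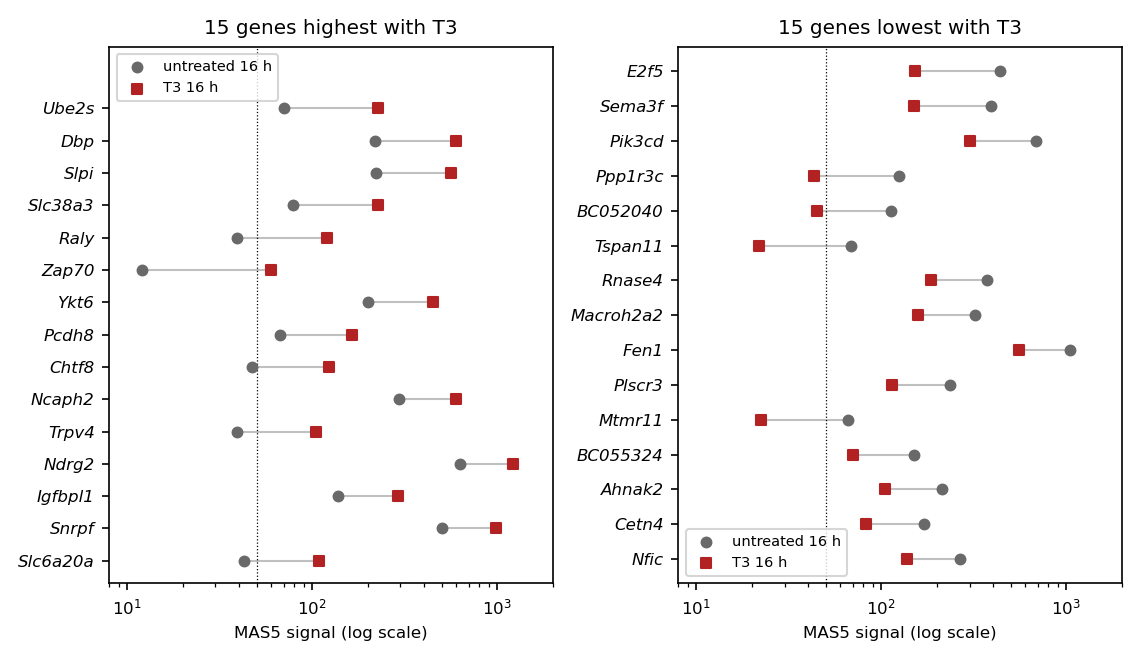
MAS5 signals (x axis, log scale) at 16 h of the 15 genes highest (left) and the 15 lowest (right) with T3 after 32 was added to every signal, untreated as grey circles and T3 as red squares, 1 array each. The dotted line marks the filter at 50, and Zap70, with 12 and 59.9, has the widest gap of the left panel.

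Only 14 of the 64 genes past 2-fold had another kept probe-set to compare. In 12 of these 14 every other probe-set had the same sign, although those of E2f5 (-0.00 and -0.03) and Npas3 (0.01) were practically 0. The same share over all 3441 genes with more than 1 kept probe-set was not counted. In 3 of the 12, Dbp, Pcdh8 and Mvd, another probe-set was past 2-fold as well. The choice of the brightest probe-set also left out large differences on dimmer ones, and the following were picked after their values had been seen. Prpf19, a ubiquitin ligase of the spliceosome, had 66.4 with T3 and 16.1 without (2.04) on 1 probe-set and 0.20 on its brightest. For Eif4a1, an RNA helicase of translation initiation, 375 and 130.1 (1.53) and 147 and 65.3 (1.17) stood beside -0.03 on the brightest. Ptbp1, a splicing repressor, had 136 and 510.5 (-1.91) on 1 probe-set and 0.22 on its brightest.

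Promoter sequences from RefSeq (build GRCm38.p6, 250 bases before to 50 after each start) were found for 31 of the 36 higher and 19 of the 28 lower genes. They were searched on both strands for AGGTCA, the hexamer that thyroid hormone receptors bind in pairs, and for CACGTG, the E-box bound by clock proteins. AGGTCA was present in 16.3% and CACGTG in 7.15% of all 32851 promoters. By gene, AGGTCA was present in 5 of the 31 higher genes (16.1%) and 3 of the 19 lower ones (15.8%), against 14.1% of the kept genes, and CACGTG in 4 of 31 and 2 of 19, against 12.2%. The bases before the start are shown for Ube2s (chr7:4812341-4812590, minus strand), the higher gene at the head of the ranking, for Dbp (chr7:45704997-45705246, plus strand), which has neither motif in the window searched (bases further upstream were not searched here), and for Slpi (chr2:164356508-164356757, minus strand) and Ppp1r3c (chr19:36736605-36736854, minus strand), higher and lower genes that share the E-box. Capitals mark AGGTCA in Ube2s, 220 bases before the start, and CACGTG in Slpi and Ppp1r3c, 146 and 104 bases before it. A match describes these letters only, and their absence from a window says nothing of the factors.
Ube2s: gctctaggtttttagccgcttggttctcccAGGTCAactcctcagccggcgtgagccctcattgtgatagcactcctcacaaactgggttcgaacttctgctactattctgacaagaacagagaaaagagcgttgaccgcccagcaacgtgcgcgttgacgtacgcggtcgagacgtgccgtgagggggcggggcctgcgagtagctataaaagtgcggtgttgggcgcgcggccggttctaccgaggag
Dbp: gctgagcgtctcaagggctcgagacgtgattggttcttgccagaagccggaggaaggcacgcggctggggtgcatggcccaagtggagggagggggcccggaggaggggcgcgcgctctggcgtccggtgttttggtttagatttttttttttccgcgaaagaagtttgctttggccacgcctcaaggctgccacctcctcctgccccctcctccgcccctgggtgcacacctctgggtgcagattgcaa
Slpi: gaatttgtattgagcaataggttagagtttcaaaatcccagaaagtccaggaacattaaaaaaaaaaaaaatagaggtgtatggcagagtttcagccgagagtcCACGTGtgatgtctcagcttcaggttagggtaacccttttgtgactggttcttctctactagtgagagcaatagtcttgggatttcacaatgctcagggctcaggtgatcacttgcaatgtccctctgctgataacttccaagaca
Ppp1r3c: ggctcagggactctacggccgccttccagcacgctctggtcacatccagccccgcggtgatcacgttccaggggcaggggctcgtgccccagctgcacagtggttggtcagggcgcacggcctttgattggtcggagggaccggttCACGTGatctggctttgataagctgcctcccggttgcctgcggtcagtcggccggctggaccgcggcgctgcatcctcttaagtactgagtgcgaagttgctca

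The genes through which T3 acts differed little. Of 23 receptors, partners, cofactors, transporters and deiodinases with a probe-set 19 were kept, none was past 1.6-fold, 4 were higher and 15 lower with T3, and the median log2 difference was -0.06. Over all genes 47.6% were higher and 52.3% lower. Thra had 556 with T3 and 562 without (-0.02), and its other kept probe-sets gave -0.33 and -0.05. Thrb was at background (7.4 and 10.4). Dio2, the deiodinase that makes T3 from T4, was the lowest of the list (38.0 and 53.1, -0.48) and Hdac3 of the corepressor complex the highest (306 and 247, 0.31). The amino acid and thyroid hormone transporter Slc7a5 had 1068 and 1000.1 (0.09), and the coactivators Ncoa1, Ncoa2 and Ncoa3 stood at -0.20, -0.23 and -0.27.

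Among other genes known to respond to T3 in brain or elsewhere, 10 of 27 with a probe-set were kept, with a median of 0.06. Apart from Dbp and Klf9 none was past 1.6-fold, the myelin protein gene Mbp being the next highest (213 and 156.5, 0.44) and Me1, the malic enzyme, the lowest (337 and 417, -0.31). Of 16 Krüppel-like and Sp factors with a probe-set 14 were kept. Besides Klf9, Sp3 (297 and 182, 0.71) was past 1.6-fold higher with T3, and Klf13, a close relative of Klf9, had 267 and 171 (0.65). Klf5 (99.5 and 180, -0.85) and Klf4 (168 and 270, -0.68) were past 1.6-fold lower, and the list median was -0.10. These 2 higher and 2 lower of 14 stand beside 1.5% and 1.3% of all genes.

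Of 21 genes of the circadian clock with a probe-set 15 were kept, 12 of them higher with T3, with a median of 0.10. Dbp was the 1 member past 1.6-fold. Its relatives in the PAR bZIP family, Hlf (65.1 and 51.5, 0.34) and Tef (189 and 175, 0.11), differed less, as did the clock repressors Per1 (66.6 and 50.3, 0.41), Nr1d2 (773 and 659, 0.23) and Cry1 (121 and 113, 0.10). The activators Clock and Arntl differed by 0.05 and 0.03.

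Markers of the cell types of the cerebellum were compared next. Of the 18 kept genes of granule cell precursors and the Sonic hedgehog response, Barhl1, a homeobox factor of the rhombic lip lineage, was 2-fold higher (144 and 65.9, 1.12). Its untreated signals were 348, 65.9, 292 and 42.6 at 6, 16, 24 and 48 h, and its differences at the other time points were 0.08, -2.11 and 0.43. The other members ranged from -0.64 for Gli3 (68.3 and 106.5) to 0.38 for Pax6 (402 and 310), and the list median was -0.03. The precursor factor Atoh1 (123 and 136), the cyclin Ccnd2 (1721 and 1862) and the hedgehog receptor Ptch1 (626 and 592) differed by -0.14, -0.11 and 0.08.

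Among 9 kept genes that mark differentiated granule neurons none was past 1.6-fold (median 0.11). The highest was Rbfox3, a neuronal splicing factor (566 and 387, 0.55), and the lowest the Rac regulator Chn2 (47.4 and 57.7, -0.28). The 6 kept Purkinje cell genes lay between -0.39 (Foxp2) and 0.22 (the calcium buffer Calb1) with a median of 0.09, and 13 kept genes of synaptic vesicles between -0.61 (Stx1a, 92.3 and 141) and 0.65 (Snap25) with a median of 0.07. Of the neurons that use GABA, the enzyme Gad1 had 68.8 and 47.8 (0.53) and Reln, the secreted guide of layering, 899 and 932 (-0.05).

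Of the 13 kept genes of astrocytes and Bergmann glia, Gdf10, a TGF-beta family factor of Bergmann glia, was past 1.6-fold higher (135 and 76.9, 0.81) and higher with T3 at 6, 24 and 48 h as well (0.28, 0.99 and 1.46). The other 12 lay between -0.49 (Sox9) and 0.46 (Aldoc), and the list median was -0.09. The 7 kept oligodendrocyte genes had a median of -0.02, from Cldn11 (358 and 487, -0.45) to Mbp. All 6 kept microglia genes were higher with T3, by 0.12 (Csf1r, 137 and 126) to 0.40 (Tyrobp, 68.5 and 51.9), with a median of 0.26, and none was past 1.6-fold. In the list of endothelial, mural and meningeal cells, Col1a1, a chain of type I collagen, was past 1.6-fold lower (98.7 and 168, -0.77) and the pericyte gene Vtn was highest (91.9 and 58.1, 0.66), with a median of -0.14 over 15 genes.

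Genes of the choroid plexus epithelium did not differ in 1 direction. Kcnj13, a potassium channel of this epithelium, had 759 with T3 and 394 without (0.95), Aqp1, its water channel, 598.5 and 360 (0.73), and the folate receptor Folr1 1186 and 841 (0.50). The thyroxine carrier Ttr (-0.17) and the keratins Krt8 (523 and 684, -0.39) and Krt18 (-0.29) were lower. Of the 13 kept members 6 were higher and 7 lower, the median was -0.03, and the signals summed to 11276 with T3 and 11141 without. Kcnj13 was higher with T3 at every time point, by 1.01, 2.23 and 1.21 at 6, 24 and 48 h.

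**Figure D4:**
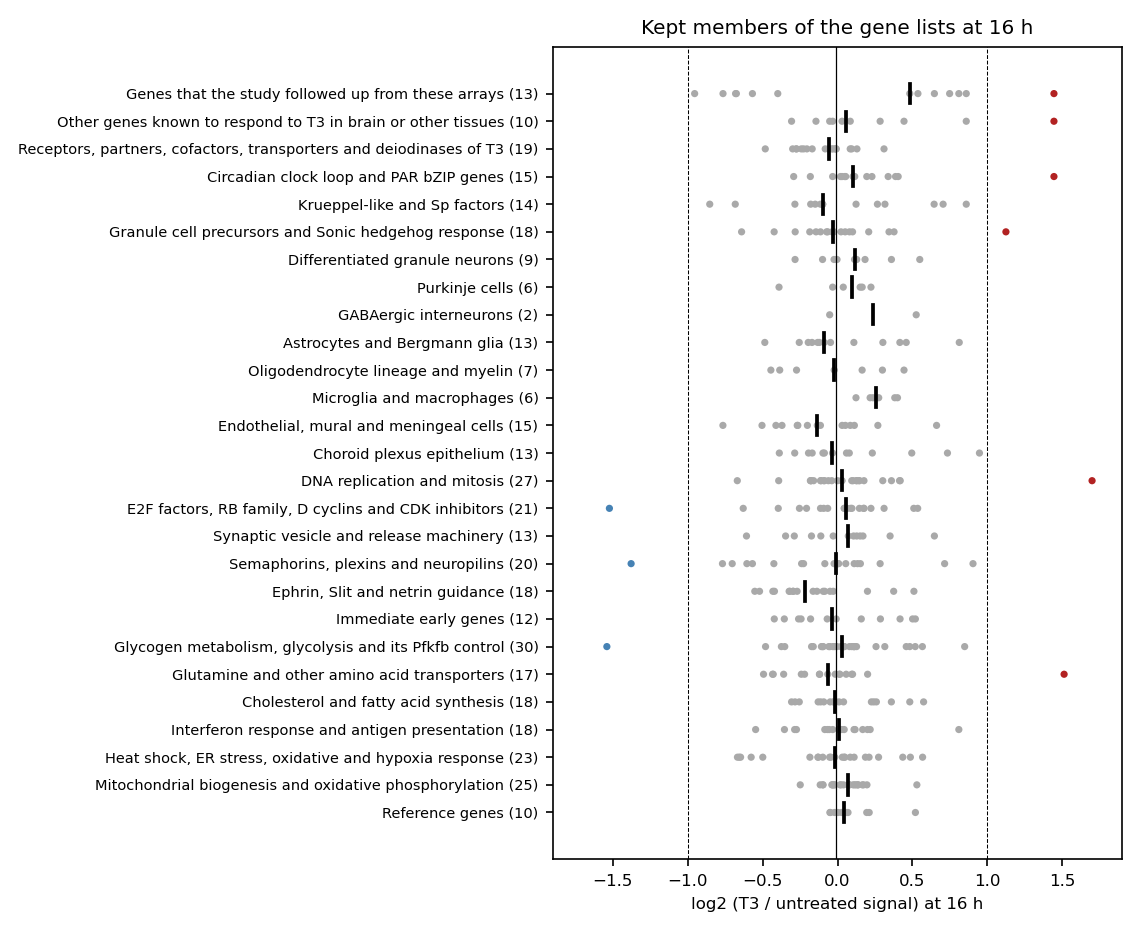
Log2 of the T3 over the untreated signal at 16 h (x axis) for every kept member of 27 gene lists, 1 row per list with the number of kept genes in brackets, red and blue where past 2-fold and black bars for medians. The medians of most lists lie close to the thin line, which marks the median over all genes (-0.01), and single genes such as Dbp, Ube2s, E2f5, Sema3f and Ppp1r3c stand away from their lists.

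Ube2s and E2f5 were also set beside the genes of cell division. Of 27 kept genes of DNA replication and mitosis 14 were higher and 12 lower with T3, and the median was 0.03. After Ube2s the largest differences within this list, which holds neither Fen1 nor Chtf8, were those of the motor protein Kif11 (80.6 and 60.3, 0.42), the kinase Cdk1 (742 and 557, 0.41) and cyclin Ccne1 (109 and 174, -0.67). Ube2c, which acts with Ube2s on the anaphase-promoting complex, had 780 and 633 (0.30), Mki67, the usual marker of cycling cells, 1158 and 1254 (-0.11), and the replication clamp Pcna 1674 and 1518 (0.14). Of 21 kept E2F factors, RB proteins, D cyclins and inhibitors of cyclin-dependent kinases E2f5 was the 1 member past 1.6-fold, and the median was 0.06. The E2F genes E2f1, E2f3, E2f6 and E2f8 differed by 0.18, 0.15, 0.09 and 0.05. The inhibitors Cdkn1b (308 and 216, 0.51) and Cdkn2d (131 and 90.6, 0.54) were higher and Cdkn1c (540 and 835, -0.63) was lower.

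Of 31 semaphorins, plexins and neuropilins 20 were kept, with 2 members past 1.6-fold higher and 3 lower, beside 1.5% and 1.3% of all genes, and a median of -0.01. Beside Sema3f, the lower members were Sema6c (30.7 and 52.3, -0.77) and the semaphorin receptor Nrp1 (369 and 601, -0.70). The related neuropilin Nrp2, which binds Sema3f, had 301 and 306 (-0.02). The higher ones were the membrane semaphorins Sema4b (67.4 and 36.0, 0.90) and Sema4d (72.4 and 44.1, 0.72). Of the 18 kept ephrin, Slit and netrin guidance genes 15 were lower and 3 higher with T3, with a median of -0.22, none past 1.6-fold. They ranged from the Eph receptor Ephb3 (42.2 and 61.9, -0.55) to Ephb1 (65.8 and 46.2, 0.51), and the median of the list at the other time points was -0.17, -0.71 and -0.00.

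Among 30 kept genes of glycogen metabolism and glycolysis, Ppp1r3c was past 2-fold lower and Gbe1, the branching enzyme of glycogen, past 1.6-fold higher (125 and 69.5, 0.85). The glycogen synthase Gys1 (170 and 177) and the brain phosphorylase Pygb (267 and 288) differed by -0.06 and -0.11, and the list median was 0.03. Of 17 kept amino acid transporters Slc38a3 stood alone, the other 16 lying between -0.49 (Slc38a6) and 0.20 (Slc7a3). Its relatives Slc38a1 and Slc38a2 had 644 against 601 (0.10) and 1340.4 against 1456 (-0.12). The medians of the lists for cholesterol and fatty acid synthesis (18 genes), oxidative phosphorylation (25), interferon response (18), immediate early genes (12) and stress response (23) lay between -0.04 and 0.07. Among them Gbp3 was the 1 gene past 1.6-fold by its brightest probe-set. The metallothionein Mt1 (2263 and 3597, -0.67) and the heat shock protein Hspa1b (718 and 1132, -0.66) were the lowest. Over the 2 kept probe-sets of Mt1 the mean difference was -1.03, which is past 2-fold. The 10 kept reference genes had a median of 0.04 and lay between -0.05 (Pgk1) and 0.52 (Tbp, 101 and 70.5).

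The genes past 2-fold were chosen by the 16 h pair alone, although some genes described above were named for their values at other time points. Of the 36 genes at least 2-fold higher at 16 h, 26 were also higher with T3 at 6 h, 16 at 24 h and 19 at 48 h, and 8 at all of these. Of the 28 lower genes 19, 13 and 18 were lower, and 3 at all. Over all 9284 genes the direction was shared with 6 h in 55.4%, with 24 h in 51.2% and with 48 h in 53.7%, and all 4 time points shared it in 15%. Over the 15832 probe-sets the log2 differences at 16 h correlated with those at 6, 24 and 48 h at 0.17, 0.04 and 0.09 (Pearson's r across probe-sets, which are not independent). Genes past 2-fold at 16 h that had the same direction at all time points and were past 1.5-fold at 2 or more others were Dbp, Slpi, Fzd4, Pcdh8, Tmem38b and Slc6a20a, all higher with T3.

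**Figure D5:**
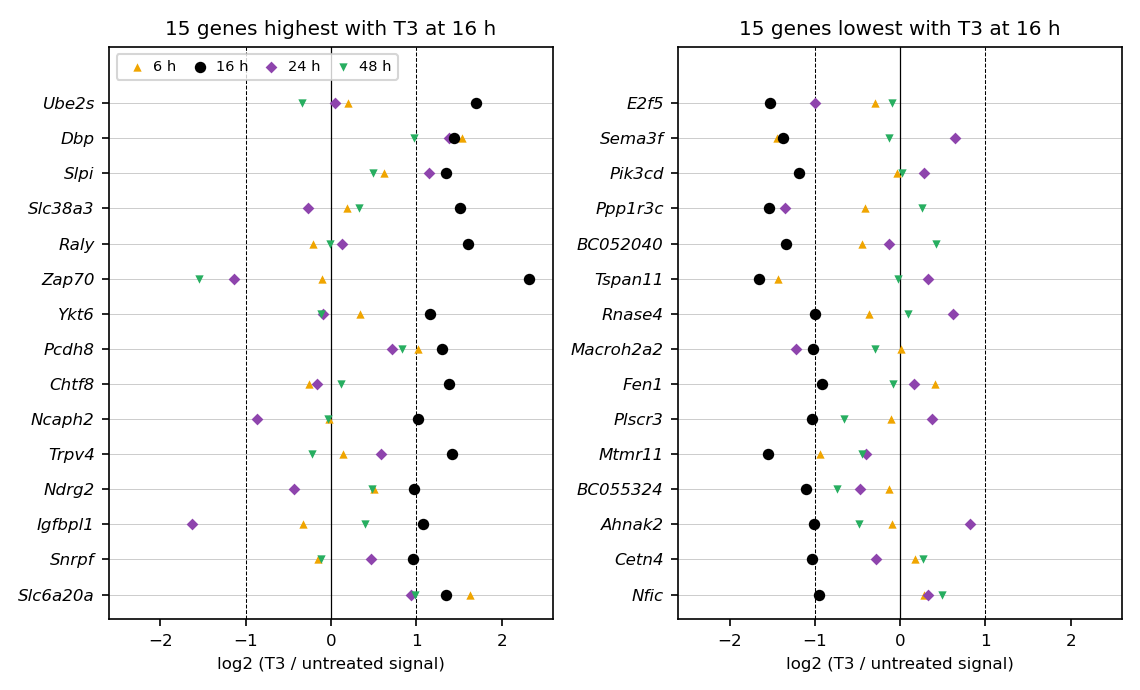
Log2 of the T3 over the untreated signal (x axis) at 6, 16, 24 and 48 h for the same 15 highest (left) and 15 lowest (right) genes at 16 h, 1 pair of arrays per point, with dashed lines at 2-fold. For Dbp, Slpi, Pcdh8 and Slc6a20a all 4 points lie right of 0, and for E2f5, Mtmr11 and BC055324 all lie left of it.

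The T3 effect over the other 3 pairs was tested with limma. No probe-set of 15832 passed (0 at an adjusted p of 0.05, lowest adjusted p = 0.885), while 625 had an unadjusted p under 0.05. Dbp had an effect of 1.30 (SE 0.16), Slc6a20a 1.18 (SE 0.27), Klf9 1.10 (SE 0.16), Pcdh8 0.86 (SE 0.16), Slpi 0.75 (SE 0.18) and Ube2s -0.03 (SE 0.17), each at an adjusted p of 0.885 except Ube2s at 0.975. Without the 24 h pair, the one with the widest differences, 70 probe-sets of 56 genes passed (0.442%), 52 higher (0.328%) and 18 lower (0.114%) with T3, and 49 of the 70 had the same sign at 16 h. Over all 9284 genes the 16 h direction was shared with 6 h in 55.4% and with 48 h in 53.7%. At 16 h 0.827% of all 15832 probe-sets were past 2-fold, and 6 of these 70 were. They were both probe-sets of Dbp (1.25, SE 0.15, adjusted p = 3.31e-07 for the brighter one), 1 of the 4 of Klf9 that passed, Pcdh8 (0.93, SE 0.21, adjusted p = 0.0209), Slpi (0.56, SE 0.14, adjusted p = 0.0438) and Sema3f (-0.79, SE 0.19, adjusted p = 0.0334). Klf9 (0.97, SE 0.10, adjusted p = 3.35e-09 on its brightest probe-set), Kcnj13 (1.11, adjusted p = 3.83e-05), Gdf10 (0.87, adjusted p = 0.00775), Folr1 (0.65, adjusted p = 0.00775), Spata13 (0.74, adjusted p = 0.0177), Gbp3 (0.65, adjusted p = 0.0159) and Snap25 (0.84, adjusted p = 0.0120) passed as well. Their 16 h differences, given above, had the same sign, but these genes were picked from all that passed. Others passed with the opposite sign at 16 h, among them Sema6c (1.46, and -0.77 at 16 h), Hyou1 (0.97 and -0.67) and Gadd45b (0.80 and -0.83). The choroid plexus gene Sostdc1 passed too, with 0.79 on its brightest probe-set and -0.10 at 16 h. The fit without the 24 h pair rests on the 6 and 48 h pairs alone, so its SE comes mostly from the spread pooled over many probe-sets. The differences at 6 and 48 h were 0.20 and 1.48 for Snap25, -1.44 and -0.13 for Sema3f, and 1.35 and 0.60 for Klf9. Each other pair was left out in turn, and only this omission gave calls. Dbp, Klf9, Spata13, Gbp3 and Snap25 were followed up by the study from these arrays, so their calls are no independent evidence.

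Whether a difference at 16 h departed from that of the other pairs was tested in the same way. No probe-set passed (0 at an adjusted p of 0.05 by limma, 226 at an unadjusted p under 0.05, all adjusted p near 1). Without the 24 h pair 27 probe-sets passed (0.171%), 13 higher (0.0821%) and 14 lower (0.0884%) at 16 h, and 14 of them were past 2-fold at 16 h. They held Ube2s (16 h minus the other pairs 1.78, SE 0.31, adjusted p = 0.00396), Snrpf (1.10, SE 0.20, adjusted p = 0.00632), Zap70 (3.14, SE 0.62, adjusted p = 0.0119), Raly (1.72, SE 0.36, adjusted p = 0.0227) and Ncaph2 (1.05, SE 0.23, adjusted p = 0.0419) among the higher genes. Among the lower ones were Hyou1, a chaperone of the endoplasmic reticulum (-1.63, SE 0.23, adjusted p = 0.000194), Fen1 (-1.08, SE 0.22, adjusted p = 0.0153), Pik3cd (-1.18, SE 0.24, adjusted p = 0.0185), E2f5 (-1.33, SE 0.27, adjusted p = 0.0185), Nfic (-1.33, SE 0.28, adjusted p = 0.0216) and Gadd45b, a stress-induced gene of DNA demethylation (-1.62, SE 0.31, adjusted p = 0.00998). Gadd45b had 103 with T3 and 183 without at 16 h and was higher with T3 at the other time points. Its other kept probe-set had -0.14 at 16 h and did not pass (-0.89, adjusted p = 0.579). The other kept probe-sets of Ncaph2 (0.07), Fen1 (0.73), Nfic (-0.03) and E2f5 (0.14 and -0.09) did not pass either. The genes that passed here rest on the 16 h pair itself, where a departure can lie in either culture, and on 2 other pairs. The contrast contains the 16 h difference, so differences past 2-fold at 16 h are favoured among them. Zap70 and Raly reached the filter of 50 only on the T3 array at 16 h, so their calls are no support for a departure. For Dbp, Klf9 and Slc6a20a the same contrast was 0.19, -0.11 and 0.04, and none of them passed.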

How the data were processed

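Total RNA of 8 cultures, 1 array for each of 2 treatments and 4 time points, was amplified and hybridized by the authors. The deposited values are linear signal intensities per probe-set, made with GCOS and MAS5 according to the submitters' processing notes and scaled by the authors to a common trimmed mean (99.5 to 99.6 as measured here). Columns of values left unused: 0. From the 45101 probe-sets, 64 hybridization controls were removed. A single gene symbol is annotated for 34945 of the remaining 45037 and more than 1 for 932, while 9160 have no symbol, and only the first kind is named. Gene IDs of 34741 were found in RefSeq, and 0 symbols changed. Before log2 was taken, signals under 1 were raised to 1. The number of arrays limits the precision, since each condition was hybridized once.

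The methods pair the T3 culture and the untreated culture of a time point by preparation of cells. The differences within the 6, 24 and 48 h pairs, and the 16 h pair against these, were tested with limma 3.58.1 in R 4.3.3 (variance trend, Benjamini-Hochberg over 15832 probe-sets, threshold 0.05). Tables (pandas 2.3.3, numpy 2.4.6) and figures (matplotlib 3.10.9) came from Python 3.11.15. Both fits were also run on simulated data of 15832 probe-sets. The fit over the other 3 pairs recovered 86% of changes of log2 1 and 100% of log2 2, with 10 false of 196 calls. The fit of 16 h against them recovered 12% and 81%, with 9 false of 102. A simulated probe-set had the same spread in every pair. In the data the SD of the differences was 0.56 at 24 h against 0.29 and 0.30 at 6 and 48 h. These recovery rates therefore do not carry over to the data.

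Gene lists, rules and members were chosen with earlier results of these data known. Named are the 15 highest and lowest genes after 32 was added to each signal, list members (extremes, bright members and relatives of a named gene), the genes that the study followed up, genes with a shared direction at all time points, and those with the smallest p for a departure at 16 h. Further list members, and Hyou1, Prpf19, Eif4a1 and Ptbp1, were picked after their values had been seen. Alternatives were 32 added to every signal, quantile normalization, median centring, other filters and thresholds, the mean over probe-sets, no variance trend, no pairing, and each other pair left out. The detection calls and comparison p-values of MAS5 and the study's other experiments were not used here.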

Additional observations from a re-analysis of the deposited data

How the results depend on the processing

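The count of probe-sets past 2-fold at 16 h (64 higher and 67 lower, 131 in all) depended on low signals. It was 16 higher and 10 lower, 26 in all, with 32 added to every signal, so that 61.5% of the calls were higher in place of 48.9%. It was 35 and 29, 64 in all, with a filter at 100, 27 and 26, 53 in all, with a signal of 50 or more required on both arrays, and 3800 and 3302, 7102 in all, with no filter. At 1.6-fold it was 259 and 259, 518 in all, and at 3-fold 11 and 5, 16 in all. Quantile normalization (69 and 71) and median centring (64 and 64) moved it little. Of the 64 genes past 2-fold, 11 stayed so with 32 added, 64 with quantile normalization, 63 with median centring and 53 with the mean over probe-sets, and in none of these did the direction turn. For E2f5 the mean over probe-sets was -0.52 and for Fen1 -0.09. Leaving out 1 of the other pairs gave 0 to 70 calls for the T3 effect over the other pairs and 0 to 27 for the departure at 16 h, the highest values being those without the 24 h pair and the other fits giving 0. Without the pairing by time point (no replicate block) the T3 effect over the other 3 pairs gave 0 calls as well, 22 probe-sets at an unadjusted p under 0.05. The fit of the departure at 16 h has no form without pairs. In simulated data with the same spread in every pair it found 12% of differences of log2 1, a rate that does not carry over to the data. It rests on 1 pair at 16 h, so an absence of calls does not show that the time points were alike.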
